A study of Mus musculus with 8 samples.

Results

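The Myt1 family is a group of 3 zinc finger genes, Myt1, Myt1l and St18 (also called Myt3), taken here out of the 55414 genes counted in each library of dorsal root ganglia (DRG) from E18.5 mouse embryos. The family was chosen by the counts of Myt1 in this comparison, because Myt1, with closely spaced replicates, was halved relative to Control when Dach1 was overexpressed. That contrast, and the spread of Myt1 within its groups, are therefore given as a description, with no test for the 3 genes. The bulk RNA-seq libraries were 4 AD1 OE libraries, of genotype AdvillinCre/+;Rosa26Dach1/+, and 4 Control libraries, of genotype Advillin+/+;Rosa26Dach1/+. Every embryo thus carried 1 Rosa26 allele with a Dach1 and EGFP cassette behind a stop that Cre removes, on a mixed C57Bl/6J and CD1 background. The AD1 OE embryos carried in addition 1 Advillin allele that makes Cre in somatosensory neurons. The effect of the Dach1 transgene and that of the Cre allele at Advillin cannot be told apart in this design, and the AD1 OE animals die around birth. Dach1 is a transcriptional regulator of the Ski/Sno family that is first broad and then restricted among somatosensory neurons, and the comparison asks what its forced expression in all of these neurons changes.

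The family encodes DNA-binding proteins with clustered CCHHC zinc fingers, in which cysteines and histidines hold a zinc ion. Myt1 acts during neurogenesis, where it has been linked to the exit of progenitors from Notch signalling, and it is also made in oligodendrocyte progenitors. Myt1l is kept on in neurons throughout life and represses programmes of other cell types, together with Sin3 and histone deacetylase corepressors. St18 is found in subsets of neurons, such as inhibitory neurons of the brain, and in some endocrine cells.

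The 3 genes were alike in the part of their coding sequence that defines the family. An in-frame pattern of the CCHHC finger was searched on the coding strand in the longest coding transcript of 21639 genes of the GENCODE M21 annotation. The pattern fixes 3 cysteine codons (TGC or TGT) and 2 histidine codons (CAC or CAT) at the spacing seen in the sequences printed here, and leaves all other bases free. It was found in 5 genes (0.0231%), and the 3 family members were those with at least 2 copies. Myt1 held 7 copies in 1169 codons, Myt1l 6 in 1187 and St18 6 in 1045. Each of the 3 had a pair of fingers in the middle whose starts lay 44 codons apart. Towards the end of the coding sequence Myt1 and St18 each had a cluster of 4 fingers, and Myt1l a cluster of 3. Myt1 and Myt1l also had 1 finger near the start, which the pattern did not find in St18. The middle pair is printed because all 3 genes have it. Capitals mark the codons of the 3 cysteines and 2 histidines that the pattern fixes. The first finger of the pair, at codons 486 to 510 of Myt1, 507 to 531 of Myt1l and 366 to 390 of St18, reads:
Myt1 finger 2: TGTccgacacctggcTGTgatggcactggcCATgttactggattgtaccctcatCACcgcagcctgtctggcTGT
Myt1l finger 2: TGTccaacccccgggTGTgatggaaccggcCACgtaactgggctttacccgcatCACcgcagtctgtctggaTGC
St18 finger 1: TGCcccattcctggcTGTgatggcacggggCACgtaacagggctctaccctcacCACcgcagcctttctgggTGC

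The second finger of the pair, from codon 530 of Myt1, codon 551 of Myt1l and codon 410 of St18, reads, with the same meaning of the capitals:
Myt1 finger 3: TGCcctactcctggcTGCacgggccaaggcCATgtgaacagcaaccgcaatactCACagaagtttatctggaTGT
Myt1l finger 3: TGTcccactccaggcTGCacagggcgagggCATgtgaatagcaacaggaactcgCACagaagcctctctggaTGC
St18 finger 2: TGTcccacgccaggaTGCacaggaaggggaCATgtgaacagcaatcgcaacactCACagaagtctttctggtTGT

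In the first finger of the pair, 60 of 75 bases (80%) were the same in Myt1 and Myt1l, and 59 of 75 (78.7%) in Myt1 and St18. In the second finger, 58 of 75 bases (77.3%) were the same in Myt1 and Myt1l and 59 of 75 (78.7%) in Myt1 and St18. Myt1l and St18 had 59 of 75 bases (78.7%) the same in either finger. Between the first finger of the pair in a gene and the second in another, 41 to 44 of 75 bases (54.7% to 58.7%) were the same. The fingers near the start were less alike, with 46 of 75 bases (61.3%) the same in Myt1 and Myt1l. They read:
Myt1 finger 1: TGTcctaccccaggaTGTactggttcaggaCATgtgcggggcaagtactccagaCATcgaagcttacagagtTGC
Myt1l finger 1: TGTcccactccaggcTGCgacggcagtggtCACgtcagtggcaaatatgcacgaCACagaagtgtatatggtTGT

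**Figure D1:**
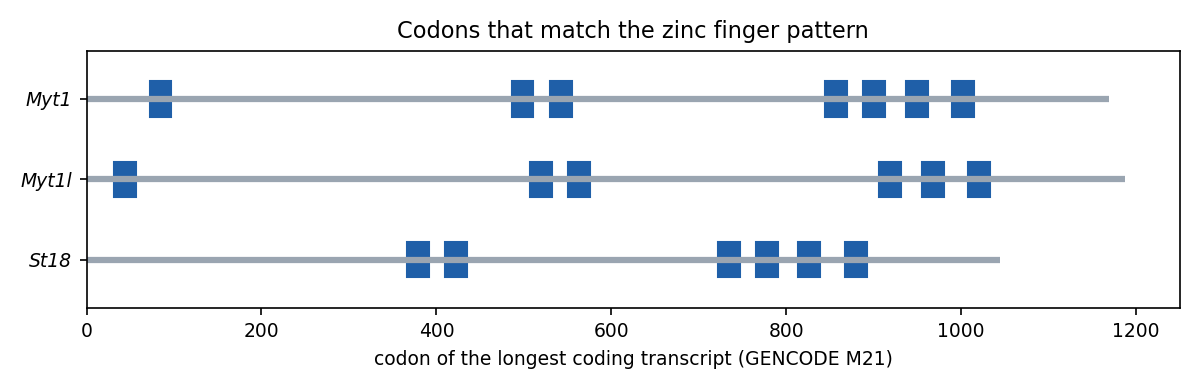
Positions of the zinc finger pattern (blue boxes) along the longest coding transcript of each gene (grey line), in codons from the start codon. Myt1 has 7 boxes, Myt1l and St18 have 6 each, and all 3 genes share the pair in the middle.

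The libraries held between 22339059 and 44025625 counts, and levels are given as CPM, which corrects each count for the TMM-scaled size of its library. Dach1 was 95.9 ± 5.28 CPM (SD, n = 4) in AD1 OE and 32.6 ± 1.64 CPM in Control, a log2 fold change of 1.56 (SE 0.05, edgeR adjusted p = 1.77e-08). Avil, whose locus carries Cre in AD1 OE, was 464 ± 12.03 CPM against 892 ± 35.1 CPM, a log2 fold change of -0.94 (SE 0.04, edgeR adjusted p = 1.98e-07). Avil shares exon bases with Tsfm on the other strand. Sex was not labelled. Read from Xist and Y-linked genes, AD1 OE held 3 male libraries and 1 female one, and Control 1 male and 3 female. Control replicate 1 had the highest summed level of the spinal cord, sympathetic, oligodendrocyte and glial markers.

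Myt1 was lower in all 4 AD1 OE libraries than in any of the 4 Control libraries, which lay close together. The AD1 OE libraries measured 34.5, 34.4, 30.1 and 35.7 CPM for replicates 1 to 4, from 771 to 1524 counts. The Control libraries measured 64.8, 64.6, 63.9 and 66.7 CPM, from 1440 to 2360 counts. The groups did not overlap, and AD1 OE replicate 3 was the lowest library of all. The AD1 OE mean of 33.7 ± 2.42 CPM was 51.8% of the Control mean of 65.0 ± 1.17 CPM. The fitted log2 fold change was -0.95 (SE 0.05). Over the whole table, a call needed an adjusted p below 0.005 together with an absolute log2 fold change above 0.25, which 455 of 17721 tested genes (2.57%) met, 316 (1.78%) with less and 139 (0.784%) with more RNA in AD1 OE. Myt1 was 1 of the 316, as its selection fixed, so nothing is read from that call, and 72 of the others had a larger decrease. The study also names a stricter limit on the fold change, an absolute log2 value over 1, with a looser adjusted p of 0.05. Myt1 at -0.95 did not reach that fold change. In bulk tissue, fewer cells that make Myt1 and less Myt1 RNA per cell cannot be told apart.

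The spread of Myt1 within the groups was also part of its selection. The coefficient of variation was 1.80% in Control, and 4.4% of tested genes had a smaller one there. In AD1 OE it was 7.20%, close to the median of 7.09% over all tested genes, and 50.8% of genes had a smaller one. The counting error alone gave 95% Poisson intervals of 61.5 to 68.2 CPM for Control replicate 1 and of 28.1 to 32.3 CPM for AD1 OE replicate 3.

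Myt1l had the most counts of the 3 genes, and its groups overlapped. It measured 222, 204, 200 and 212 CPM in AD1 OE replicates 1 to 4, and 181, 202, 197 and 197 CPM in Control replicates 1 to 4. Control replicate 2 lay above AD1 OE replicate 3, and Control replicate 1 was the lowest library. The means were 209 ± 9.82 in AD1 OE against 194 ± 9.26 CPM in Control, and the first was 108% of the second. The log2 fold change was 0.11 (SE 0.04), and without Control replicate 1 it was 0.08. Exons of Myt1l share 633 bases with Gm20208 on the opposite strand, whose own level was 0.312 to 0.678 CPM, and no source used here says whether the counting separated the strands.

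St18 was close to the detection limit in every library. Its counts were 9, 5, 13 and 5 in AD1 OE replicates 1 to 4 and 14, 5, 6 and 25 in Control replicates 1 to 4, which is 0.203, 0.223, 0.497 and 0.180 CPM against 0.630, 0.156, 0.236 and 0.706 CPM. All 8 libraries were above a floor of 3 counts, the groups overlapped, and the gene was left out of the fit by the filter on low counts. The means were 0.276 ± 0.149 in AD1 OE against 0.432 ± 0.276 CPM in Control, a log2 ratio of means of -0.65. That ratio was -0.30 without Control replicate 4, -0.41 without Control replicate 1 and -1.10 without AD1 OE replicate 3. The 95% Poisson intervals were wide, from 0.0930 to 0.386 CPM for AD1 OE replicate 1 and from 0.344 to 1.06 CPM for Control replicate 1, and the range of AD1 OE lay inside that of Control. Within Control the spread was larger than counting error, since the intervals of replicate 2 (0.0506 to 0.363 CPM) and replicate 4 (0.457 to 1.04 CPM) did not overlap.

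**Figure D2:**
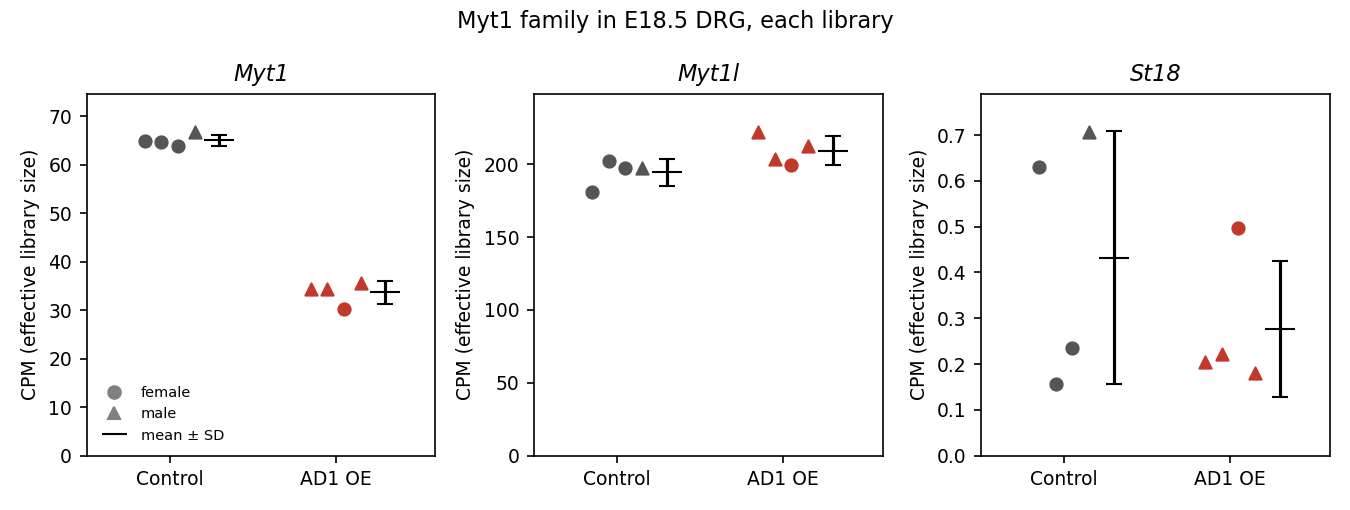
CPM of Myt1, Myt1l and St18 in each of the 8 libraries, with the mean and SD beside the points of each group and the sex read from the data as the marker shape. The Myt1 points lie at 30.1 to 35.7 in AD1 OE against 63.9 to 66.7 CPM in Control, while the points of Myt1l and of St18 overlap between the groups.

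The 3 St18-richest libraries were also the 3 with most RNA of spinal cord neuron markers. The summed level of 10 such markers (genes of inhibitory and motor neurons and their precursors) was 16.5 CPM in Control replicate 1, 12.8 CPM in Control replicate 4 and 8.95 CPM in AD1 OE replicate 3. It was 4.11 to 6.45 CPM in the other 5 libraries. Of these markers 7 could be tested and 0 were called in edgeR, DESeq2 or limma-voom (2 had an unadjusted p under 0.05). Their median log2 fold change was -1.22, and -0.69 without Control replicate 1. The share of all tested genes with an unadjusted p under 0.05 in this comparison is not given, though 1161 had an adjusted one under 0.05 in edgeR. Nothing is therefore read from such counts in this list or the lists below. Mnx1, a motor neuron gene, had a count in 2 libraries only, AD1 OE replicate 2 and Control replicate 1, and was at 0 in the other 6. The part of this RNA in the St18 values was not tested. Of the 3 libraries rich in these markers, Control replicates 1 and 4 had the highest Myt1 levels of their group, 64.8 and 66.7 CPM. Control replicates 2 and 3 had 64.6 and 63.9 CPM, inside the Poisson interval of Control replicate 1 (61.5 to 68.2 CPM). AD1 OE replicate 3 went the other way, with the lowest Myt1 level of its group, 30.1 CPM against 34.4 to 35.7 CPM. The part of spinal cord RNA in the Myt1 values was not tested.

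**Figure D3:**
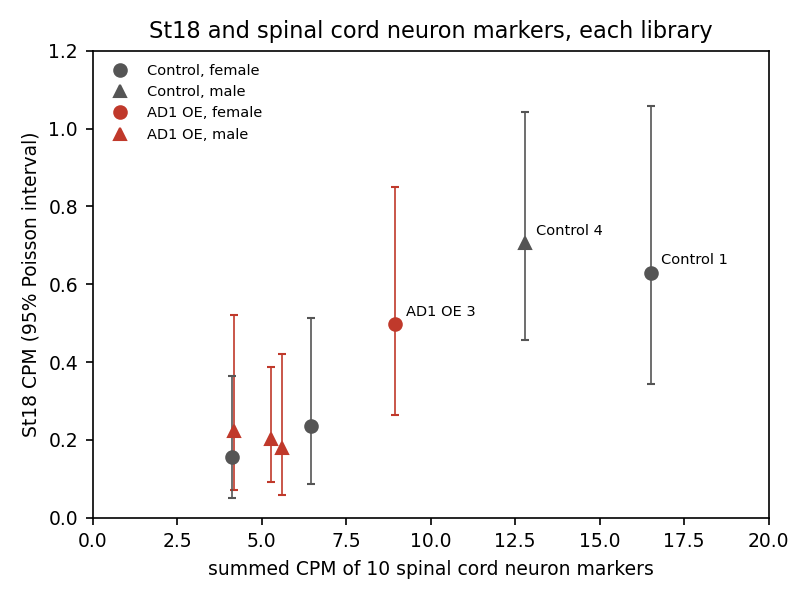
St18 CPM with its 95% Poisson interval (counting error only) against the summed CPM of 10 spinal cord neuron markers, 1 point per library. Control replicates 1 and 4 and AD1 OE replicate 3 are highest on both axes, and the other 5 libraries lie together at 0.156 to 0.236 CPM of St18.

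Myt1 is also a gene of oligodendrocyte progenitors, so markers of that lineage were set beside it. Their summed level was 156 to 173 in AD1 OE against 145 to 191 CPM in Control, 0 of 7 tested were called in edgeR, DESeq2 or limma-voom (3 had an unadjusted p under 0.05), and the median log2 fold change was -0.15. Most of the sum came from Pdgfra and Cspg4, which are also made outside the lineage, with log2 fold changes of 0.23 (edgeR adjusted p = 0.0232) and -0.15. The lineage factors Olig1 and Olig2 and the receptor Gpr17 had -1.70, -1.45 and -0.96, with edgeR adjusted p of 0.123, 0.278 and 0.280, and -0.95, -0.55 and -0.33 without Control replicate 1. Olig1 was 0.678 to 1.53 CPM in AD1 OE and 8.37, 0.903, 1.65 and 3.78 CPM in Control replicates 1 to 4. The part of oligodendrocyte lineage RNA in the Myt1 values was not tested. Glial markers summed to 2175 to 2358 in AD1 OE against 2216 to 2573 CPM in Control, with 0 of 10 called by the 3 tools (3 with an unadjusted p under 0.05). Sympathetic neuron markers summed to 4.50 to 7.96 CPM in AD1 OE, 18.2 CPM in Control replicate 1 and 3.42 to 5.06 CPM in the other Control libraries, with 0 of 3 tested called by the 3 tools and 0 with an unadjusted p under 0.05. Their median log2 fold change was -0.61, and 0.91 without Control replicate 1. Among markers of fibroblasts, endothelium and macrophages 0 of 6, 0 of 5 and 0 of 6 were called by the 3 tools (3, 0 and 1 with an unadjusted p under 0.05). Because edgeR called only 2.57% of all tested genes, nothing is read from 0 calls in marker lists this short. Without Control replicate 1 the log2 fold change of Myt1 was -0.95.

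Genes listed here as pan-neuronal include Isl1, Pou4f1 and Prph of sensory or peripheral neurons. Of 12 such genes 0 were called by edgeR, DESeq2 or limma-voom and 3 had an unadjusted p under 0.05. Over all tested genes edgeR called 2.57%, so nothing is read from 0 calls among 12. The log2 fold changes ran from -0.15 to 0.14, with a median of -0.01. Their summed level was 9242 to 9937 in AD1 OE against 9575 to 9962 CPM in Control. Stmn2, a tubulin-binding growth protein, was 2292 ± 44.9 CPM against 2341 ± 75.2 CPM (log2 fold change -0.03). Prph, an intermediate filament of peripheral neurons, had a log2 fold change of -0.02, Tubb3, the neuronal tubulin, of -0.12 and Uchl1, a ubiquitin hydrolase, of -0.07. Isl1 and Pou4f1, the homeobox factors that define sensory neurons, were detected at 198 to 217 CPM and 128 to 140 CPM in AD1 OE, and at 197 to 211 CPM and 132 to 144 CPM in Control.

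Markers of nociceptors, the pain-sensing neurons, moved in the same comparison. Of 8 genes listed as peptidergic nociceptor markers 5 were called lower and 0 higher in edgeR, with a median log2 fold change of -0.60. These 5 were the neuropeptide genes Calca, Tac1 and Adcyap1 (-0.70, -0.88 and -0.50), the cold channel Trpm8 (-1.20) and the opioid receptor Oprk1 (-1.31). The paper places Trpm8 more broadly, among genes that work in thermo/nociceptors, so its decrease does not speak for peptidergic nociceptors alone. Of 9 non-peptidergic markers 4 were called lower, Mrgprd, Mrgpra3, Lpar3 and Gfra2, and 1 higher, Plxnc1. Among 5 markers of C-low-threshold mechanoreceptors Th was called higher and Tafa4 lower. Mafa and Shox2 were called lower in edgeR among 8 markers of TrkB mechanoreceptors, and Etv1 among 6 of proprioceptors. DESeq2 called 3 of these TrkB markers and 3 of these proprioceptor markers, and limma-voom 2 of each. For the other 3 lists the number called was the same in the 3 tools. These marker lists are short and were chosen with earlier results known. Whether Myt1 is made in the neurons that these markers label was not tested.

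Myt1l had more counts than Myt1 in every library, and by more in AD1 OE than in Control. For every Myt1 count there were 6.44, 5.93, 6.63 and 5.94 Myt1l counts in AD1 OE replicates 1 to 4. In Control replicates 1 to 4 there were 2.79, 3.13, 3.09 and 2.96. The ratio was 6.23 ± 0.353 in AD1 OE and 2.99 ± 0.151 in Control, and the groups did not overlap, as the selection of Myt1 largely fixes. Myt1 made up 13.8 ± 0.678% of the family's counts in AD1 OE and 25.0 ± 0.940% in Control. The summed level of the 3 genes overlapped between the groups, with 230 to 256 in AD1 OE against 246 to 267 CPM in Control.

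**Figure D4:**
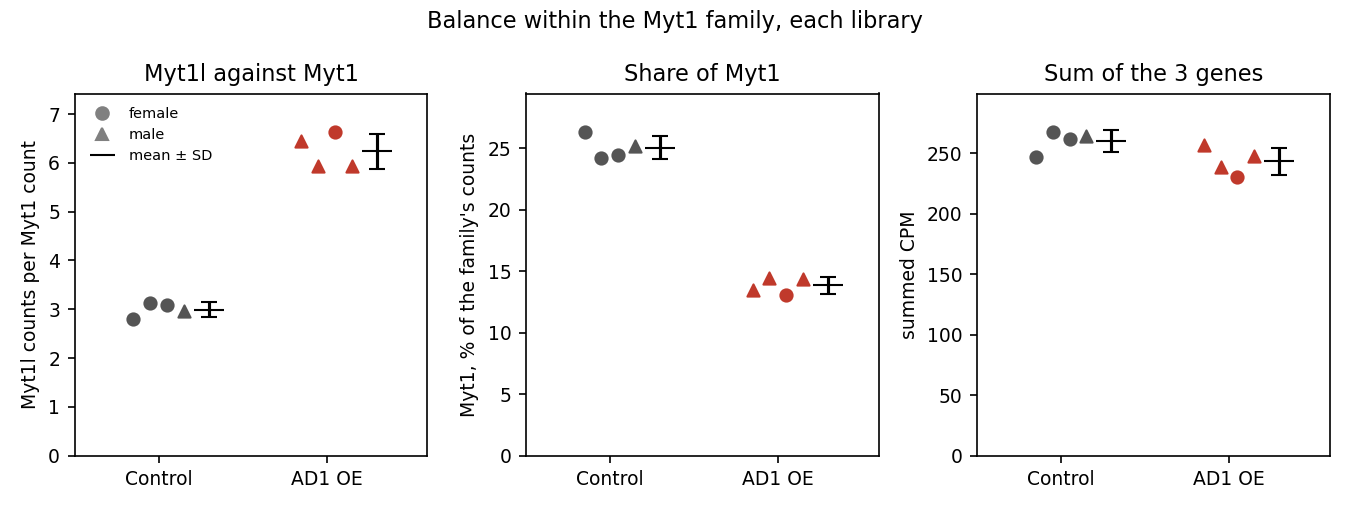
Myt1l counts per Myt1 count, the share of Myt1 in the family's counts and the summed CPM of the 3 genes, per library, with the mean and SD of each group. The ratio lies at 5.93 to 6.63 in AD1 OE and 2.79 to 3.13 in Control, while the summed CPM overlaps.

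Levels of different genes can be compared only per length, for which TPM, which scales counts by length and then to the same total in every library, was computed with each gene's longest transcript. In Control the order was Myt1l at 82.1 ± 5.38 TPM, Myt1 at 35.9 ± 0.961 TPM and St18 at 0.222 ± 0.140 TPM. In AD1 OE the order was the same, with Myt1l at 91.4 ± 4.23 TPM, Myt1 at 19.2 ± 1.34 TPM and St18 at 0.147 ± 0.0800 TPM. The ranges of neighbours in this order did not overlap in either group. Per length, Myt1l exceeded Myt1 by 2.29 ± 0.116 times in Control and 4.77 ± 0.270 times in AD1 OE. With the length of all merged exons instead, which is 14018 bases for Myt1l and 7191 for Myt1, these ratios were 1.535 and 3.20.

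Sex itself played no part in the choice of the family, but Myt1 was chosen for closely spaced replicates. The terms that involve sex are measured within the groups, so that choice favours small values for Myt1, and nothing is read from their size. In a fit with genotype and sex, Myt1 differed by 0.12 on the log2 scale (male minus female, SE 0.05, adjusted p = 0.734 in edgeR) and Myt1l by 0.06 (SE 0.05, adjusted p = 0.869). Neither passed the threshold, and 12 of 17721 genes (0.0677%) did, while 1184 had an unadjusted p under 0.05, with Myt1 at 0.0375 by edgeR's test of the sex term. Without AD1 OE replicate 3, the female library of its group, the sex difference of Myt1 was 0.04, and without Control replicate 4, the male library of its group, it was 0.21. The term for a genotype difference that depends on sex rests on 1 female AD1 OE library and 1 male Control library, whose own spread is not known. It was 0.16 for Myt1 (SE 0.10) and 0.06 for Myt1l (SE 0.11), each with an edgeR adjusted p of 0.992. For that term 0 genes (0%) were called in edgeR, 1 in limma-voom, and 654 had an unadjusted p under 0.05. Within the female libraries Myt1 was 30.1 CPM in the AD1 OE library and 63.9 to 64.8 CPM in the 3 Control libraries, a log2 ratio of -1.10. Within the male libraries it was 34.4 to 35.7 CPM in 3 AD1 OE libraries and 66.7 CPM in the Control library, a log2 ratio of -0.94. Myt1l differed by 0.05 and 0.11 within females and males. The St18 ratio changed direction, 0.55 in females and -1.81 in males, each with 1 library on a side. With sex in the fit the genotype difference was -1.01 for Myt1 and 0.08 for Myt1l.

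The corepressors with which Myt1l and Myt1 are known to work had log2 fold changes within 0.16 of 0. Of 20 listed genes of the Sin3, histone deacetylase and CoREST complexes 19 were tested and 0 were called by edgeR, DESeq2 or limma-voom (3 had an unadjusted p under 0.05). With 2.57% of all tested genes called in edgeR, nothing is read from 0 calls in a list this short. The log2 fold changes ran from -0.15 to 0.16, with a median of 0.0050, beside 0.0018 over all tested genes. The chromatin subunit Rbbp4 was 194 ± 4.51 in AD1 OE against 193 ± 6.26 CPM in Control, and the deacetylase Hdac2 was 194 ± 11.3 CPM against 191 ± 5.05 CPM. Rbbp7, another histone-binding subunit, had a log2 fold change of 0.0050 and the deacetylase Hdac3 of -0.02.

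Of 37 genes of the Notch pathway, through which neighbouring cells hold one another in the progenitor state, 0 were called by edgeR, DESeq2 or limma-voom. Over all tested genes edgeR called 2.57%, so nothing about the pathway is read from that 0. The lowest adjusted p was 0.119 in edgeR, 4 genes had an unadjusted p under 0.05, and the median log2 fold change was 0.0086. Among the 6 ligands the best expressed were Dlk1, an atypical ligand, at 155 ± 31.3 CPM against 164 ± 31.6 CPM, Jag2 (log2 fold change 0.07), Jag1 (-0.03) and Dll4 (-0.08). All 4 receptors were measured. Notch2 had the largest value, 92.9 ± 6.69 in AD1 OE against 82.4 ± 6.66 CPM in Control (log2 fold change 0.17, SE 0.06, edgeR adjusted p = 0.154). Notch1, Notch3 and Notch4 had 0.02, 0.02 and 0.11. Of the 15 genes that process or tune the receptor, the protease Adam10 had 0.10, the ligand-activating ligase Mib1 0.07, the adaptor Numbl -0.0035 and Ncstn, a subunit of gamma-secretase, -0.05. Among the 6 nuclear mediators Rbpj, which binds DNA for the pathway, was 29.5 ± 2.13 CPM against 26.1 ± 0.410 CPM (log2 fold change 0.17, SE 0.06, edgeR adjusted p = 0.119). The corepressor Spen had a log2 fold change of 0.0086 and the coactivator Maml3 of -0.11. The 6 target genes included Hes1, a repressor of proneural genes, at 13.9 ± 2.13 CPM against 13.0 ± 1.95 CPM (0.10, edgeR adjusted p = 0.736), with Hey2, Hey1 and Heyl at 0.05, 0.07 and 0.0014.

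Of 10 Id and progenitor genes 0 were called by the 3 tools, 1 had an unadjusted p under 0.05, and the median log2 fold change was -0.08. As edgeR called 2.57% of all tested genes, nothing is read from that 0 either. The intermediate filaments Vim and Nes had -0.08 and 0.07, and Id4 and Id2, which block proneural factors, had 0.12 and -0.08.

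Proneural and early neuronal transcription factors, beside which Myt1 acts in neurogenesis, held 2 of the 3 called genes. Of 16 listed 11 were tested, 1 was called higher and 1 lower. Insm2, a zinc finger factor of neuroendocrine and early neuronal cells, was 10.1, 10.7, 11.2 and 12.6 CPM in AD1 OE and 18.6, 22.2, 17.5 and 20.5 CPM in Control. The groups did not overlap and the log2 fold change was -0.83 (SE 0.09, edgeR adjusted p = 1.45e-04). Ebf3, a helix-loop-helix factor of differentiating neurons, was 135 ± 0.967 in AD1 OE against 103 ± 5.43 CPM in Control, with 95.1 CPM in Control replicate 1 and 105 to 106 CPM in the others. Its log2 fold change was 0.39 (SE 0.04, edgeR adjusted p = 7.57e-05), and 0.35 without Control replicate 1. It shares exon bases with Gm45278 on the opposite strand. Its relatives Ebf1, Ebf2 and Ebf4 had 0.02, -0.07 and 0.19, and Hes6, a Hes family member that promotes neurogenesis, had -0.02. Neurog1, Neurog2, Neurod2, Neurod4 and Neurod6 were too low to be tested, at mean levels of 0.0096 to 0.225 CPM.

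Of 16 repressors and splicing factors of neuronal fate, 1 was called higher and 0 lower. Bcl11b, also named Ctip2, was 39.1, 38.6, 38.6 and 36.4 CPM in AD1 OE and 24.5, 28.5, 24.8 and 27.2 CPM in Control. The groups did not overlap, and the log2 fold change was 0.54 (SE 0.06, edgeR adjusted p = 1.36e-04). The splicing regulators Ptbp2, Ptbp1 and Srrm4 had -0.02, 0.06 and -0.13, and the repressor Zeb2 had 0.04.

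Over the 10 lists together 3 of 105 tested genes were called, 2 higher and 1 lower, beside 2.57% of all tested genes. The groups did not overlap for 9 of the 105, beside 13% of all tested genes (2296), and the median log2 fold change was 0.0007. Several listed genes, among them Notch1, Notch3, Rbbp4, Rbbp7, Ncstn, Id4, Ptbp1, Srrm4, Zeb2 and Uchl1, share exon bases with a gene on the other strand, which leaves their counts uncertain in the same way as those of Ebf3.

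**Figure D5:**
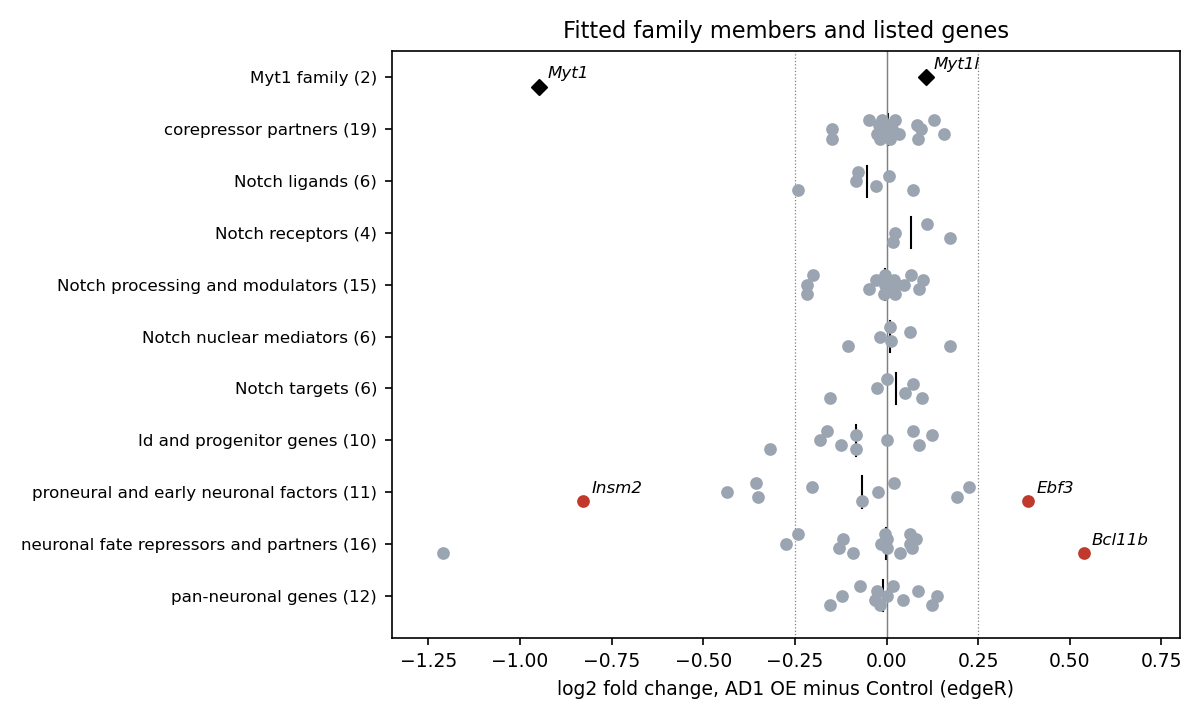
Log2 fold change of AD1 OE minus Control for Myt1 and Myt1l (black diamonds) and for the tested genes of 10 lists (circles, red where called, with the number tested after each name and a vertical tick at the median). Dotted lines mark the limit of 0.25 on either side. Myt1, which was chosen for its change, lies at -0.95, beyond all Notch pathway and corepressor genes. Pou3f3 lies lower, at -1.21, and was not called. The called genes are Insm2, Ebf3 and Bcl11b.

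The genes whose levels followed those of Myt1 most closely over the 8 libraries were Calca, Synpr, Vstm2a, Nell1 and Fstl5, out of 12516 genes that averaged 5 CPM or more. Pearson's r of log2 CPM with Myt1 was 0.998 for Calca, the gene of the neuropeptide CGRP. It was 0.996 for Synpr, a synaptic vesicle protein, 0.996 for Vstm2a, and 0.995 for Nell1 and Fstl5. The points share the 2 groups, so any gene that falls evenly in AD1 OE has a high r. After the group means were removed, r was 0.886 for Calca, 0.841 for Synpr, 0.870 for Vstm2a, 0.711 for Nell1 and 0.787 for Fstl5. These values come from the same 8 libraries that chose the genes, so the choice raises them too, and nothing is read from their height. All 5 were lower in AD1 OE, as a choice by likeness to Myt1 fixes. Synpr measured 74.7 ± 6.52 CPM in AD1 OE against 320 ± 5.09 CPM in Control, and Calca 282 ± 16.3 against 457 ± 3.22 CPM. Nell1 measured 19.2 ± 1.91 against 56.0 ± 2.06 CPM.

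For Myt1l the closest genes were Prrc2c (r = 0.968), Hs6st3 (0.965), Zfp106 (0.965), Chd8 (0.963) and Bnc2 (0.962), and 0 of these 5 were called. With the group means removed r was 0.932 to 0.942 for them, which their choice on the same libraries largely fixes. Chd8, a chromatin remodeller, was lowest in Control replicate 1, the library in which Myt1l was also lowest. Myt1 and Myt1l themselves had an r of -0.61 over the 8 libraries and of 0.44 after the group means were removed.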

How the data were processed

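Total RNA of E18.5 DRG was made into libraries with the Illumina Stranded mRNA Prep and sequenced on a NovaSeq6000. The authors aligned reads to GRCm39 with STAR 2.7.8a and counted them per gene with featureCounts 2.0.1, after bcl2fastq 2.20.0.422 (versions per the labels). The deposited files, 1 per library, hold raw counts, unfiltered and not normalized, for 55414 Ensembl IDs and 0 lines that name no gene. The strand setting of the counting is not given in the sources used here.

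The 3 members, the lists and the tests were chosen with earlier results of these data known. Groups came from the genotype labels. Symbols, transcript lengths and coding sequences came from GENCODE M21 (a GRCm38 annotation), which named 52081 IDs and all 209 listed genes, 1 of them (Tafa4) through an older symbol. Genes passing filterByExpr were scaled by TMM and tested with edgeR's quasi-likelihood test (edgeR 4.0.16, R 4.3.3), with Benjamini-Hochberg adjustment over all tested genes. Calls needed an adjusted p below 0.005 together with an absolute log2 fold change above 0.25, limits the study gives for this comparison. Its methods name others, a looser adjusted p below 0.05 with a stricter absolute log2 fold change above 1. DESeq2 1.42.0, limma-voom (limma 3.58.1), other scalings, filters and thresholds, sex as a covariate and leaving out each library were alternatives. On simulated counts for AD1 OE against Control (17721 genes, 200 of them changed), the edgeR step recovered 84% and made 0 false calls. The simulation gave every gene the same dispersion and used only changes well above the limit of 0.25. Its rates therefore do not describe the real calls, whose genes differ in spread and include smaller changes. Total counts were 22339059 to 44025625 per library. Reads carried no molecular identifiers, so Poisson intervals and the floor of 3 counts cover counting error only. The labels do not say which embryos a library holds, so p-values measure the spread between these libraries. A protein alignment was planned, and coding sequences were compared in its place.

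Named genes were the members, Dach1, Avil, called genes of the lists, up to 4 uncalled genes per list with the highest mean level, marker genes that were called or at 0, and for each member that averaged 1 CPM or more the 5 genes with the highest Pearson correlation over the 8 libraries (log2 of CPM with a pseudocount of 0.5). Isl1, Pou4f1, Olig1, Olig2, Gpr17, Pdgfra, Cspg4 and Pou3f3 fall outside this rule and were chosen after their values were seen. The values of 1 gene that the rule names are not reported here.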

Additional observations from a re-analysis of the deposited data

Results flagged for a closer look

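In each group of 4 libraries the highest or lowest value was compared with the nearest of the others. A gap that was larger, relative to the group's whole range, than Dixon's 95% critical value for 4 samples marked a library as standing apart, which chance gives in about 1 in 20 groups, and 8 of 116 groups were marked. St18 was 0.497 CPM in AD1 OE replicate 3 and 0.180 to 0.223 CPM in the other AD1 OE libraries.

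Control replicate 1 stood apart for 3 genes. It had 95.1 CPM of Ebf3 (others 105 to 106), 106 CPM of Chd8 (others 116 to 118) and 2228 CPM of Stmn2 (others 2372 to 2384). AD1 OE replicate 2 had 137 CPM of Ebf3 (others 134.5 to 134.8) and 57.3 CPM of Spen (others 66.8 to 67.9). Ebf2 was 22.6 CPM in Control replicate 3 (others 18.04 to 18.22), and Ptbp1 was 71.4 CPM in AD1 OE replicate 4 (others 78.0 to 78.5).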

How the results depend on the processing

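The log2 fold change of Myt1 lay between -1.01 and -0.89 and that of Myt1l between 0.08 and 0.14 over 16 alternatives each, and the St18 ratio between -1.10 and -0.30 over 12. Leaving out each library gave -0.97 to -0.89 for Myt1, 0.08 to 0.14 for Myt1l and -1.10 to -0.30 for St18. St18 could not be fitted with sex as a covariate, with the block, in limma-voom or with a minimum of 1 CPM, because the filters leave it out. The sex difference stayed short of the threshold in all 11 alternatives (Myt1 0.04 to 0.21, adjusted p from 0.581 to 1.000; Myt1l 0.02 to 0.09). Insm2, Ebf3, Bcl11b, Dach1 and Avil kept their call in 16 alternatives each. The count of 455 called genes (316 lower, 139 higher) became 747 (476 and 271) with no expression filter. DESeq2 called 662 (435 and 227). A threshold of 0.05 on the adjusted p alone gave 1161 (733 and 428), and one that also asked for a log2 fold change over 1 gave 129 (100 and 29), with 0 of the listed genes in place of 3 and without Myt1, Avil, Insm2, Ebf3 and Bcl11b, whose changes are smaller. Leaving out each library gave 289 to 420 calls (211 to 309 lower, 78 to 142 higher), with the lowest total and 78 higher without AD1 OE replicate 1, and 92 higher without Control replicate 3. The cause of these shifts beyond fewer or more genes, libraries or limits was not tested. With merged exon lengths, Myt1l per Myt1 was 1.535 in Control and 3.20 in AD1 OE. Same-numbered libraries had correlated deviations of -0.0541 to 0.313, and 1 of 4 AD1 OE libraries correlated best with its own number. The labels name no pairing, this check showed no clear one by number, and a weak one could escape it. With the replicate block Myt1 was -0.95 and Myt1l 0.11, with 348 calls (244 lower, 104 higher) and 3 listed genes. At 5 to 25 counts per library, counting error is wide for St18.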

Other observations

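Pou3f3, a POU domain factor of central neurons that was in the list of fate repressors and partners, had a log2 fold change of -1.21 that rests on Control replicate 1, was -0.47 without it, and was not called. It measured 0.520, 0.401, 0.765 and 0.576 CPM in AD1 OE replicates 1 to 4 and 3.15, 0.343, 0.747 and 1.24 CPM in Control replicates 1 to 4. The groups overlapped, and Control replicates 1 and 4, the highest for this gene, also had the highest summed level of spinal cord neuron markers.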
